A study of Homo sapiens with 9 samples.

Results

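Chromatin accessibility was examined around 10 genes that carry the metabolic work of the hepatocyte, 5 of gluconeogenesis (PCK1, G6PC1, FBP1, TAT and PPARGC1A) and 5 of the urea cycle (CPS1, ASS1, ASL, ARG1 and NAGS). They are 10 of 20090 protein-coding genes in the annotation used. A peak was assigned to a gene when it overlapped the gene body or the 20 kb on either side (GENCODE annotation, GRCh37). Merging the 3 deposited peak lists gave 111260 accessible regions, and 77 of them lay near these genes. The cells were HepG2, a human liver cancer cell line, profiled by ATAC-seq, in which a transposase cuts open DNA and leaves sequencing adapters behind. They had been transfected for 72 hours with 50 nM of a control siRNA (NTG, AM4611) or of 1 of 2 siRNAs against the ATPase of the INO80 chromatin remodeling complex, siINO80#1 (s224308) or siINO80#2 (29255). Each siRNA had 3 replicates, but 1 list of peaks per siRNA was analysed here. Replicate spread is therefore unknown for every difference below, and no test between conditions was possible. HepG2 is a single tumor-derived line grown in medium with serum, and the lists do not measure how far INO80 was depleted.

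Gluconeogenesis is the making of new glucose from lactate, glycerol and amino acids, by which the liver keeps blood sugar up during fasting. Glucagon, acting through cyclic AMP and CREB, and glucocorticoids turn its genes on, and insulin turns them off. The urea cycle takes the ammonia that amino acid breakdown releases and converts it to urea for excretion, and in the liver both pathways run in the same cells.

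The lists held 69730 peaks for NTG, 69333 for siINO80#1 and 53113 for siINO80#2. The number of reads at each summit was recovered from the deposited values. The lowest background was 3.82 reads in NTG, 5.16 in siINO80#1 and 5.34 in siINO80#2. Divided by the shortest peak width of its list (148, 140 and 144 bp), this background implied 1.43 times as many reads behind siINO80#1 as behind NTG. The same step implied 1.44 times as many behind siINO80#2. Markers of the liver had start-site peaks more often than markers of other cell types. Of 8 liver markers, 7 had a start-site peak in NTG, 6 in siINO80#1 and 5 in siINO80#2. Among all protein-coding genes, 60.6%, 60.2% and 53.5% had such a peak, so the count of 5 of 8 in siINO80#2 was near that share. AFP lacked one in both siINO80 lists, ALB in siINO80#2 and FGB in every list. Of 7 markers of other cell types, none had one in NTG or siINO80#2 and 1 (PTPRC) had a weak one in siINO80#1. PECAM1 was also listed as such a marker but was not found and was not counted.

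The sequences below are those on which the results turn, read from GRCh37 on the plus strand. They are centred on the strongest NTG summit, except for that of ASL. Bases of annotated untranslated regions were left out, which shortened the ASL window to 220 bases. Capitals mark matches, on either strand, to the letters TGACTCA (the AP-1 site) or TTGCNNAA (C/EBP). The first is the intronic region of PPARGC1A that stood far lower with both INO80 siRNAs (chr4:23866231-23866530).
PPARGC1A intron, lower: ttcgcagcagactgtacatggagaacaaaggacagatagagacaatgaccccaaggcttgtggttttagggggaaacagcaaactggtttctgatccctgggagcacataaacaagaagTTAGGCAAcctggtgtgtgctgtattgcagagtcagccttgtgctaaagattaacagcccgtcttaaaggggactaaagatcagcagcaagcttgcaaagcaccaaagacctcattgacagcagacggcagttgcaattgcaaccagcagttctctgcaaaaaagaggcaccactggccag
The second is the neighboring PPARGC1A region that stood higher with both (chr4:23879370-23879669). PPARGC1A is transcribed from the minus strand.
PPARGC1A intron, higher: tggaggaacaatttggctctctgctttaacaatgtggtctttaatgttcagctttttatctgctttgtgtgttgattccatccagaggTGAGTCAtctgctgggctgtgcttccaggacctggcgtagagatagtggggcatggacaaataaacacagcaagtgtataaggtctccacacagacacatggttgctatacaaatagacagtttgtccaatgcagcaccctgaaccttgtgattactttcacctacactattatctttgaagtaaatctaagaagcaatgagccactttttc
Next come the CPS1 regions that passed the fold rule upward (chr2:211449586-211449885) and that lay just outside it (chr2:211418186-211418485).
CPS1 intron, higher: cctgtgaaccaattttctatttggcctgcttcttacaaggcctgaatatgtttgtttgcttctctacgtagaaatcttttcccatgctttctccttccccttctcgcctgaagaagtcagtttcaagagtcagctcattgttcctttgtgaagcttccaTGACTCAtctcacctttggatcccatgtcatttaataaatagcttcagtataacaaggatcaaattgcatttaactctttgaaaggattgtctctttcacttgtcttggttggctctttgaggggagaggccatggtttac
CPS1 upstream of the canonical start: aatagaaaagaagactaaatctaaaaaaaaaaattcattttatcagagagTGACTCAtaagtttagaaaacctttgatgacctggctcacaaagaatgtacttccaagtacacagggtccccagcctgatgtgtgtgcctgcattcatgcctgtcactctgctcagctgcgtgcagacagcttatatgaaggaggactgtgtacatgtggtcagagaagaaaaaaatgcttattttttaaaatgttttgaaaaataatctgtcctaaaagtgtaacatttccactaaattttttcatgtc
The last is the start-site region of ASL (chr7:65540586-65540805), which was found in every list.
ASL start: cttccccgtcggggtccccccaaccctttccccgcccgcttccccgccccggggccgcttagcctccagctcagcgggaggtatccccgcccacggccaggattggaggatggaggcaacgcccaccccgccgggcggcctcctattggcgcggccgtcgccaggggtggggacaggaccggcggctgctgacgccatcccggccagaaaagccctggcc
The ASL window holds none of the motifs searched.

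The first question was how many accessible regions each siRNA left near these genes. NTG had 49 peaks, siINO80#1 had 60 and siINO80#2 had 38. The siRNAs against INO80 lay on opposite sides of the control, at 1.22 and 0.776 times its count. Over whole lists, siINO80#1 held 0.994 times and siINO80#2 0.762 times as many peaks as NTG, so the lower count with siINO80#2 was near that of its list. Near the gluconeogenesis genes, the counts were 17, 18 and 12, and near the urea cycle genes they were 32, 42 and 26. CPS1, the mitochondrial enzyme that commits ammonia to the cycle, accounted for 22, 25 and 18 of these peaks. Its window spans 241.4 kb and held 9.11, 10.4 and 7.46 peaks per 100 kb, whereas chromosome 2 as a whole held 4.77, 4.87 and 3.75. ARG1, the arginase that splits off urea, had 6 peaks in NTG, 11 in siINO80#1 and 4 in siINO80#2 and showed the same gap of 7 peaks between the INO80 siRNAs as CPS1. The other 8 genes differed between lists by at most 3 peaks. When each list was cut to its 53113 strongest peaks, the counts were 42, 44 and 38, and when only peaks with −log10 q of at least 5 were kept, they were 26, 28 and 25.

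**Figure D1:**
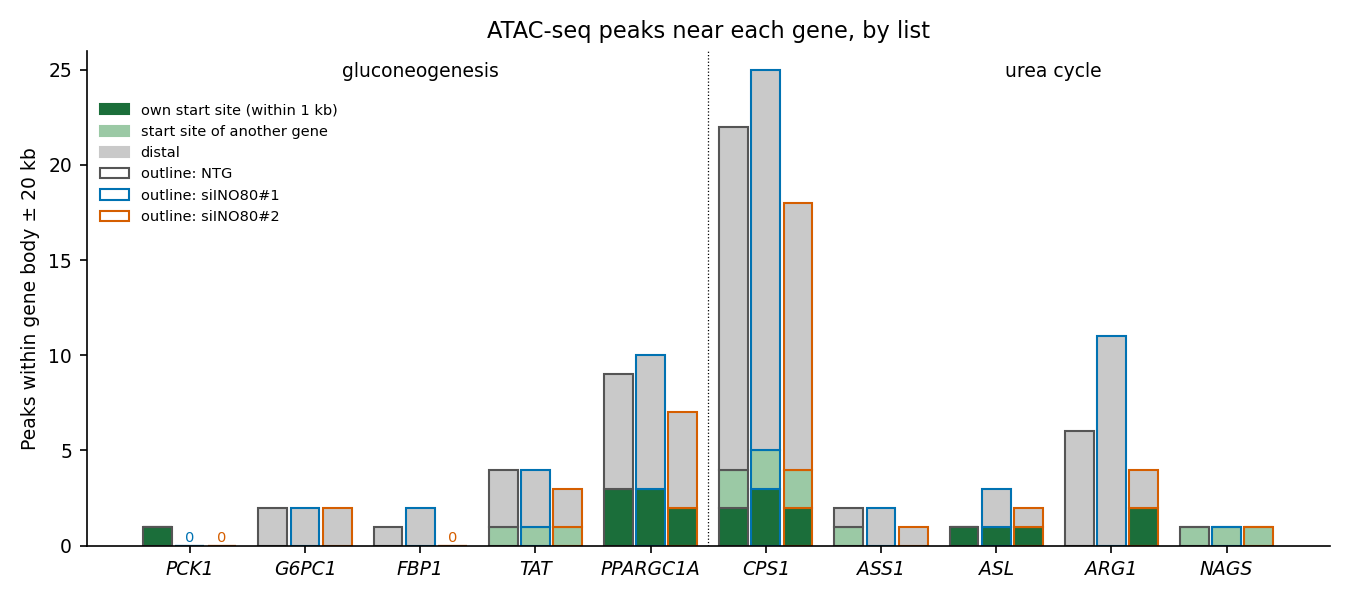
Peaks per gene (y axis, number of peaks overlapping the gene body or 20 kb on either side) for each of the 10 genes, with 3 bars per gene outlined by list and filled by the position of the strongest summit. CPS1 carries 22, 25 and 18 peaks, and PCK1, G6PC1, FBP1, TAT, ASS1, ASL and NAGS carry no more than 4 in any list.

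Most of these genes had no peak with its strongest summit within 1 kb of an annotated start. A start-site peak, with its strongest summit within 1 kb of any annotated start of the gene, was found for 4 of 10 genes in NTG, 3 in siINO80#1 and 4 in siINO80#2. Among all protein-coding genes, the shares were 60.6% in NTG, 60.2% in siINO80#1 and 53.5% in siINO80#2. The difference was not tested, and with 10 genes each count carries a wide counting error. PPARGC1A, CPS1 and ASL had one in every list, PCK1 in NTG alone and ARG1 in siINO80#2 alone. G6PC1, FBP1, TAT, ASS1 and NAGS had none in any list. At the canonical start site alone, the counts were 3, 2 and 3, and with a limit of 2.5 kb they were 6, 4 and 4, since ARG1 was added in NTG and siINO80#1 and ASS1 in NTG.

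PCK1, the enzyme that turns oxaloacetate into phosphoenolpyruvate and paces the pathway, had a single region in the whole window, with its summit at −0.16 kb from the canonical start. It was called in NTG, with a fold enrichment of 2.70 over local background, 31 reads at the summit and −log10 q of 4.39, and was called in neither siINO80 list. The peak stood at the 21.3 percentile of its list by fold enrichment and at the 50.3 percentile by −log10 q. Its local background was 10.8 reads, against a genome background of 3.82 in that list. The absence of a call does not give the level there with the INO80 siRNAs, since the lists hold no values between peaks. With −log10 q of at least 5, the NTG peak was also left out.

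G6PC1 encodes the catalytic subunit of glucose-6-phosphatase, which releases free glucose. Its window held 2 peaks in each list and no start-site peak. The region shared by all lists lay at 28.55 kb, beyond the gene's end (chr17:41081091-41081493), with 19 reads at the summit in NTG, 33 in siINO80#1 and 28 in siINO80#2. By fold enrichment over local background, it stood at the 56.4, 67.3 and 52.6 percentiles. FBP1, which removes a phosphate from fructose bisphosphate, had a single region in its own intron at 30.80 kb (chr9:97370472-97371153). The region was called in NTG at the 67 percentile and in siINO80#1, as a pair of intervals, at the 45.2 percentile. No peak near FBP1 was called with siINO80#2.

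TAT, the tyrosine aminotransferase that glucocorticoids induce, had 4, 4 and 3 peaks. The region of its own intron at 4.12 kb (chr16:71606453-71606977) had 36 reads in NTG, 37 in siINO80#1 and 38 in siINO80#2. Upstream, the region at −4.85 kb (chr16:71615625-71616359) had 37, 47 and 34 reads. The former ranked at the 77.7, 71 and 73.2 percentiles and the latter at the 81, 77.5 and 60.4 percentiles. The rank of the latter was lower with siINO80#2. Its ratio of reads to NTG there, scaled as for PPARGC1A below, was 0.877 (0.534 to 1.44), an interval that included 1. The strongest region of the window, at the 94.5, 96.1 and 91.1 percentiles, lay 23 bp from a start site of ZNF19. A region at −17.11 kb was found in NTG alone, at the 55 percentile with 23 reads.

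PPARGC1A encodes the coactivator that drives gluconeogenic transcription during fasting, and it held the largest difference among the 28 regions near these genes that all lists shared. It had 9 peaks in NTG, 10 in siINO80#1 and 7 in siINO80#2, and 6 of its 10 regions were in all 3 lists. The region at the canonical start site (chr4:23889803-23892091, summit at −0.01 kb) had 48 reads in NTG, 60 in siINO80#1 and 63 in siINO80#2, at the 89.7, 93.1 and 95 percentiles. Expressed over the genome background of each list and centred on the median of the 29863 regions shared by all lists, siINO80#1 stood at 1.02 times NTG (95% interval 0.688 to 1.53) and siINO80#2 at 1.25 times (0.847 to 1.86). The start site was thus open in each list, and both intervals, which cover counting error alone, included 1.

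The region at 25.29 kb, in intron 2 of the canonical transcript (chr4:23865701-23866939), stood much lower with both INO80 siRNAs. It had 76 reads at its strongest summit in NTG (95% interval 59.9 to 95.1), 35 in siINO80#1 (24.4 to 48.7) and 27 in siINO80#2 (17.8 to 39.3). The NTG value lay above the intervals of the other lists, although those lists rest on more reads. Its fold enrichment was 11.24, 5.06 and 3.96, which moved it from the 98.7 percentile in NTG to the 79.8 and the 68.2. The centred ratio to NTG was 0.377 (0.245 to 0.569) with siINO80#1 and 0.339 (0.21 to 0.532) with siINO80#2, or −1.41 and −1.56 on the log2 scale. Ranked by the weaker of its 2 ratios, it was the 9th lowest of the 29863 shared regions, and by fold enrichment as deposited it was the 30th lowest. In siINO80#2 the strongest summit lay at 25.41 kb, and the summit closest to that of NTG, at 25.28 kb, held 23 reads. A C/EBP match began at −31 bp from the NTG summit in plus-strand coordinates, as shown in the first sequence above. Such a match stood in 7 of the 28 shared regions near these genes (25%, Wilson interval 12.7 to 43.4). The share over all shared regions, 13.7%, lay within that interval.

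The next region toward the start site went the other way. At 12.15 kb, in the same intron (chr4:23879207-23880182), there were 43 reads in NTG (31.1 to 57.9), 95 in siINO80#1 (76.9 to 116) and 68 in siINO80#2 (52.8 to 86.2). Both siINO80 lists were higher, from the 82.3 percentile to the 97.3 and the 95.9. The centred ratios were 1.81 (1.25 to 2.66) and 1.51 (1.02 to 2.27), or 0.85 and 0.59 on the log2 scale. Before centring, reads over genome background were 11.3 in NTG, 18.4 in siINO80#1 and 12.7 in siINO80#2, so the difference with siINO80#2 was smaller. By the weaker centred ratio the region at 12.15 kb was the 1707th highest of the 29863 shared regions, far less extreme in rank than the region at 25.29 kb. The summits lay within 12.14 to 12.15 kb in all lists, and an AP-1 site stood in the window. Hence, within one intron, the list values of neighboring regions moved in opposite directions.

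Other PPARGC1A regions differed between the siRNAs or were weak. At 33.69 kb there were 23 reads in NTG, 26 in siINO80#1 and 45 in siINO80#2, and only the last had a ratio to NTG whose interval left out 1 (1.87, 1.11 to 3.23). The region at alternative start sites (chr4:23882428-23883737) had 28, 29 and 19 reads and ranked at the 60.6, 45.9 and 10.7 percentiles. These values belong to different summits, at 8.01 kb in NTG, 8.79 kb in siINO80#1 and 8.99 kb in siINO80#2. The NTG and siINO80#2 peaks did not overlap and were joined only through the siINO80#1 peak. A start-site region at −14.41 kb was called in NTG alone with 15 reads, and one at −0.78 kb in siINO80#1 alone with 20 reads. A region at 54.20 kb had a call with each INO80 siRNA but none in NTG, with 14 and 17 reads. It ranked at the 14.8 and 36.6 percentiles, in the lower part of both lists.

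**Figure D2:**
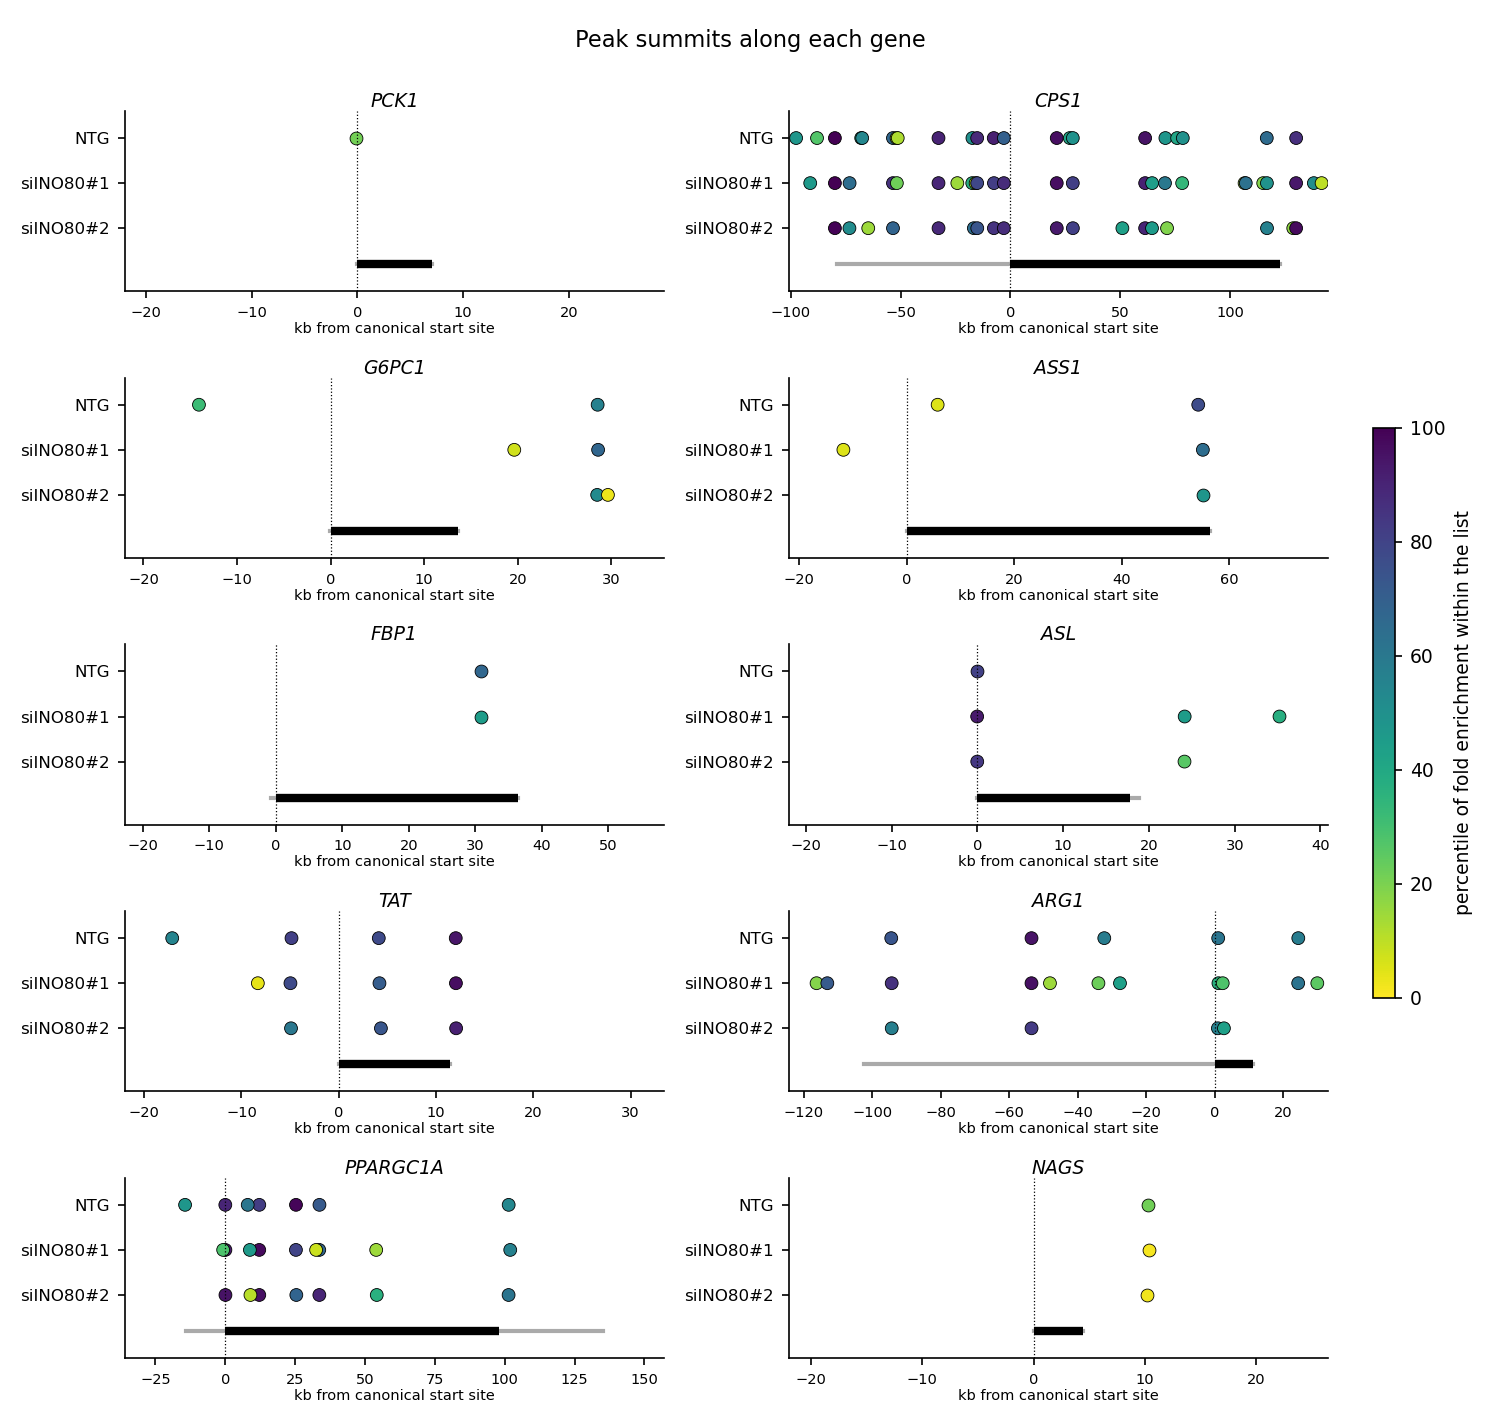
Summits of the peaks near each gene (x axis, kb from the canonical start site in the direction of transcription) in the 3 lists (rows), colored by the percentile of fold enrichment within the list; 1 point per region and list, a black bar for the canonical transcript and a gray line for the full annotated gene. In PPARGC1A the point at 25.29 kb is darkest in NTG (98.7 percentile), whereas the point at 12.15 kb is darkest in siINO80#1 (97.3 percentile).

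Among the urea cycle genes, NAGS makes the N-acetylglutamate that switches CPS1 on. Its window held a single region (chr17:42091917-42092476), which lay at a start site of the neighboring gene TMEM101. The summit had 25 reads in NTG, 26 in siINO80#1 and 26 in siINO80#2, yet its percentile was 21.6 in NTG and 1.25 and 2.11 in the siINO80 lists. The ratios of reads to NTG were 0.851 (0.472 to 1.54) and 0.993 (0.551 to 1.79), so the lower rank was not accompanied by fewer reads beyond counting error. Fold enrichment divides by the local background, and the fold enrichment was 2.71, 2.05 and 2.12.

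CPS1 had 36 regions, of which 12 were in all lists. The strongest region of its window (chr2:211340625-211342613) had 215, 267 and 202 reads and stood at the 99.9, 99.9 and 99.6 percentiles. Its NTG summit lay in an exon of LANCL1, 3 bp from a start of that gene. The most upstream annotated start of CPS1 was 940 bp away, within the 1 kb limit. The region was therefore counted as a start-site region of CPS1 but cannot be assigned to CPS1. No peak lay within 1 kb of the canonical start of CPS1. The nearest, at −2.99 kb (chr2:211418227-211418543), had 23 reads in NTG, 42 in siINO80#1 and 39 in siINO80#2. It ranked at the 69.7, 87.8 and 87.2 percentiles, higher in both siINO80 lists. Its ratios were 1.49 (0.878 to 2.6) and 1.62 (0.943 to 2.84), just outside the rule of 1.5-fold in both lists. The start-site region at an internal start, 21.10 kb into the gene (chr2:211442180-211442875), was strong throughout, with 43, 57 and 48 reads and percentiles of 96.1, 96.2 and 93.

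In intron 6 of CPS1, the region at 28.41 kb (chr2:211449371-211450033) had 17 reads in NTG (9.9 to 27.2), 34 in siINO80#1 (23.5 to 47.5) and 37 in siINO80#2 (26.1 to 51). It rose in rank from the 49.5 percentile to the 81.3 and the 80.9. The centred ratios were 1.64 (0.889 to 3.12) and 2.08 (1.14 to 3.93), and the former interval included 1. By the weaker ratio it was the 1062nd highest of the 29863 shared regions. Beyond the 3′ end, the region at 130.04 kb (chr2:211550709-211552072) had 41, 68 and 91 reads, with ratios of 1.36 (0.908 to 2.05) and 2.12 (1.45 to 3.14). It stood at the 86.5, 93.5 and 97.4 percentiles, with the highest mean percentile over the lists among the distal regions of CPS1. Regions at −73.17 kb and 64.45 kb were called with each INO80 siRNA but not in NTG. The former had 33 and 27 reads (64.8 and 51.7 percentiles) and the latter 19 in each (44.3 and 45.5 percentiles). A region at −67.44 kb was called in NTG alone with 16 reads, at the 53.7 percentile. A last start-site region, at an internal start 115.06 kb into the gene, had 15 reads in siINO80#1 alone.

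ASS1 joins citrulline to aspartate, and ASL splits the product into arginine and fumarate. ASS1 had no start-site peak in any list. Its strongest distal region, in its intron (chr9:133374291-133375672), had 36 reads in NTG, 36 in siINO80#1 and 27 in siINO80#2. The strongest summit lay at 54.19 kb in NTG, 55.05 kb in siINO80#1 and 55.09 kb in siINO80#2, so these values come from different places in the region. The region ranked at the 77, 64.6 and 47.8 percentiles. The ratios, 0.818 (0.501 to 1.34) and 0.716 (0.418 to 1.21), did not leave 1 beyond counting error. ASL had its start site open in all lists (chr7:65540517-65541276, summit at −0.07 kb), with 42, 77 and 54 reads and percentiles of 80.7, 93 and 83.7. Reads over background stood at 1.5 times NTG (1.02 to 2.24) with siINO80#1 and at 1.23 times (0.805 to 1.88) with siINO80#2. Farther on, a region at 24.17 kb was called with each INO80 siRNA but not in NTG, with 19 and 18 reads at the 45 and 26 percentiles. The region at 35.23 kb was called in siINO80#1 alone, at the 37.2 percentile.

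The annotated ARG1 gene includes a long transcript that begins far upstream of the canonical start. Most of the 13 regions near ARG1 lay upstream of the canonical start, some of them before the long transcript begins. The strongest, at −53.46 kb (chr6:131840615-131841394), had 53, 70 and 39 reads at the 94.6, 95.9 and 82.5 percentiles. With siINO80#2 its ratio to NTG was 0.702 (0.452 to 1.08), and with siINO80#1 it was 1.08 (0.746 to 1.57). Next to the canonical start, a region in all lists (chr6:131895234-131895779) had 23, 21 and 21 reads. Its summit lay at 1.06 kb in NTG, at 1.13 kb in siINO80#1 and at 0.97 kb in siINO80#2, so only the last fell within the 1 kb limit for a start-site peak. A second region, 674 bp from an internal start of ARG1 at 2.73 kb, had 18 reads in siINO80#2 alone. A region at −32.21 kb was found in NTG alone, with 17 reads at the 58.5 percentile. Of the 13 regions, 7 were called in siINO80#1 alone.

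Next, the 77 regions were sorted by the lists that held them. Of these, 28 (36.4%) were in all 3 lists, against 31.7% of the 69943 regions near protein-coding genes. There were 13 (16.9%) in NTG alone, against 23%, and 4 (5.19%) in both siINO80 lists without NTG, against 4.8%. A further 21 (27.3%) were in siINO80#1 alone, against 19.5%, and 6 (7.79%) in siINO80#2 alone, against 10%. Those shared by NTG and siINO80#1 alone numbered 5 (6.49%), against 8.44%, and those shared by NTG and siINO80#2 alone 0, against 2.61%. The Wilson interval of each share included the share near all protein-coding genes. Of the 49 NTG peaks, 36 (73.5%, Wilson interval 59.7 to 83.8) overlapped a siINO80#1 peak and 29 (59.2%, 45.2 to 71.8) a siINO80#2 peak. Thus, 13 and 20 had no match, where 38.5% and 47.7% of NTG peaks near all protein-coding genes had none.

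Regions found in every list ranked higher at the median than regions found in 1 list, with overlapping ranges. No such medians over all regions are given here, so the difference cannot be read as particular to these genes. In NTG the 28 shared regions had a median percentile of 79.2 (range 21.6 to 99.9), in siINO80#1 one of 81.5 (1.25 to 99.9) and in siINO80#2 one of 77.3 (2.11 to 99.6). The 13 found in NTG alone had a median of 41.1 (5.35 to 58.5). Likewise, the 21 found in siINO80#1 alone had a median of 18.5 (3.67 to 71.8) and the 6 found in siINO80#2 alone a median of 17.8 (3.02 to 43.6). No region of these genes that was absent from both siINO80 lists ranked above the 58.5 percentile of NTG.

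**Figure D3:**
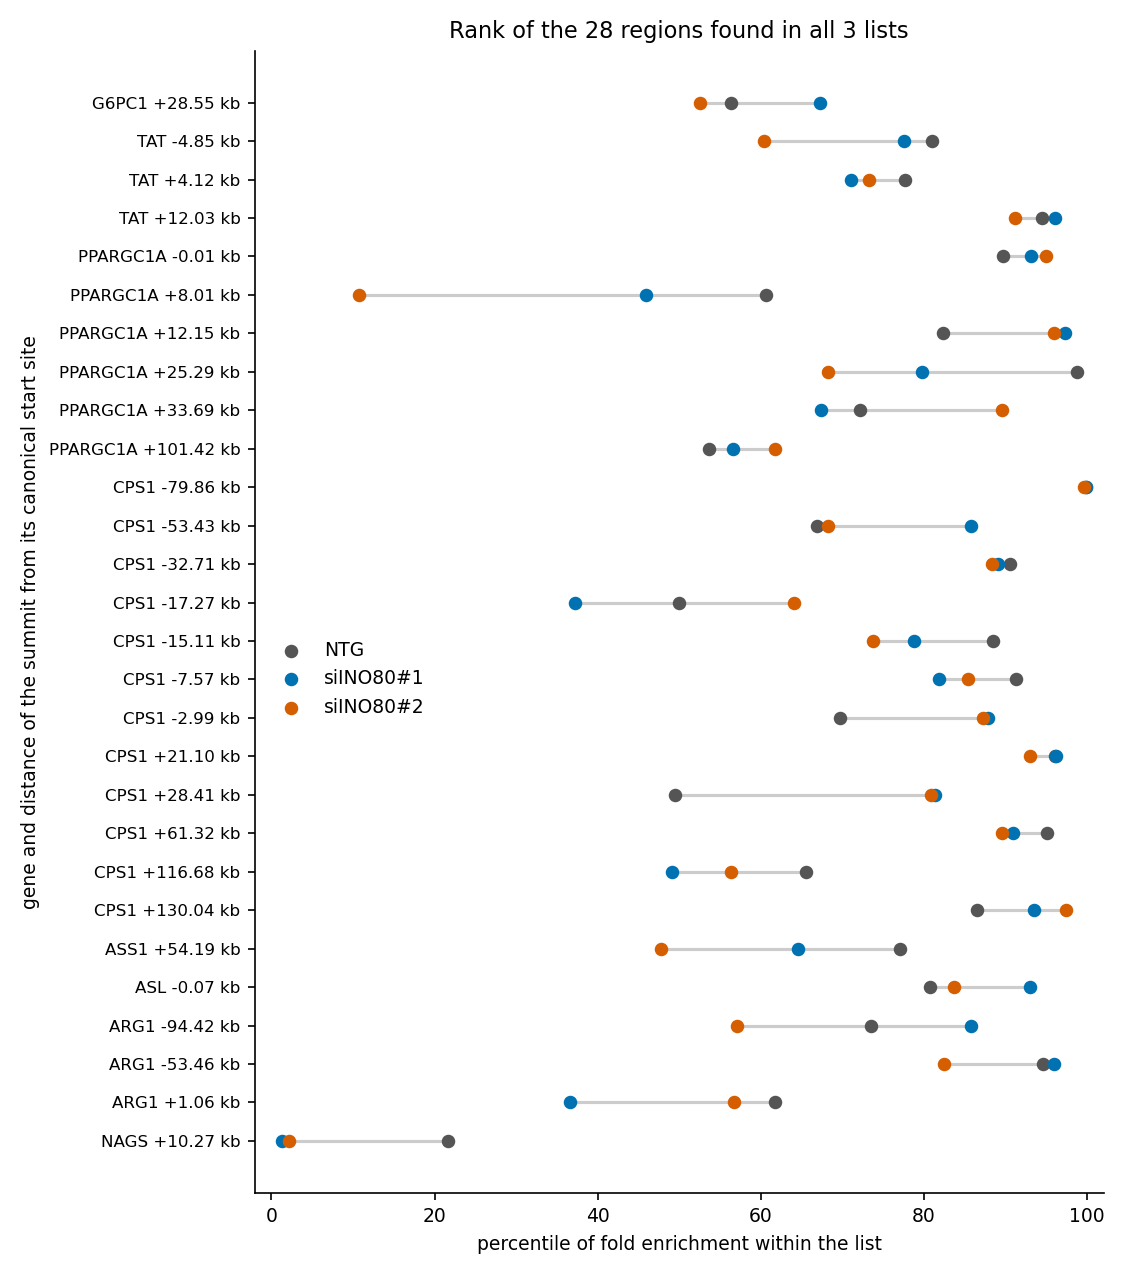
Percentile of fold enrichment within each list (x axis) for the 28 regions found in all 3 lists, 1 row per region, named by gene and by kb from the canonical start site. CPS1 at −79.86 kb stays at 99.6 or above in every list, PPARGC1A at 25.29 kb runs from 98.7 in NTG to 68.2 in siINO80#2, and CPS1 at 28.41 kb from 49.5 in NTG to 81.3 in siINO80#1.

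To compare accessibility where every list had a peak, summit reads over genome background were set against NTG in the 28 shared regions. Before centring, the median over all 29863 shared regions was −0.14 with siINO80#1 and −0.42 with siINO80#2 on the log2 scale, and values are given relative to it. The median of the 28 regions was then 0.03 (range −1.41 to 0.85) with siINO80#1, with 13 below 0, and 0.00 (−1.56 to 1.08) with siINO80#2, with 14 below 0. The interval of the ratio left out 1 in 3 regions with siINO80#1 (10.7%, against 11.3% of the 22149 shared regions near protein-coding genes) and in 5 with siINO80#2 (17.9%, against 12.4%). By a rule of at least 1.5-fold in the same direction with both siRNAs, 1 of 28 regions (3.57%) was lower, the PPARGC1A region at 25.29 kb, against 3.55% of those near protein-coding genes. By the same rule 2 of 28 (7.14%) were higher, PPARGC1A at 12.15 kb and CPS1 at 28.41 kb, against 4.63%. Both counts were close to the background, so the genes as a group did not stand out, and what set the PPARGC1A region at 25.29 kb apart was the size of its difference. Without centring, the rule was met downward by that region and by CPS1 at −15.11 kb, and upward by no region.

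**Figure D4:**
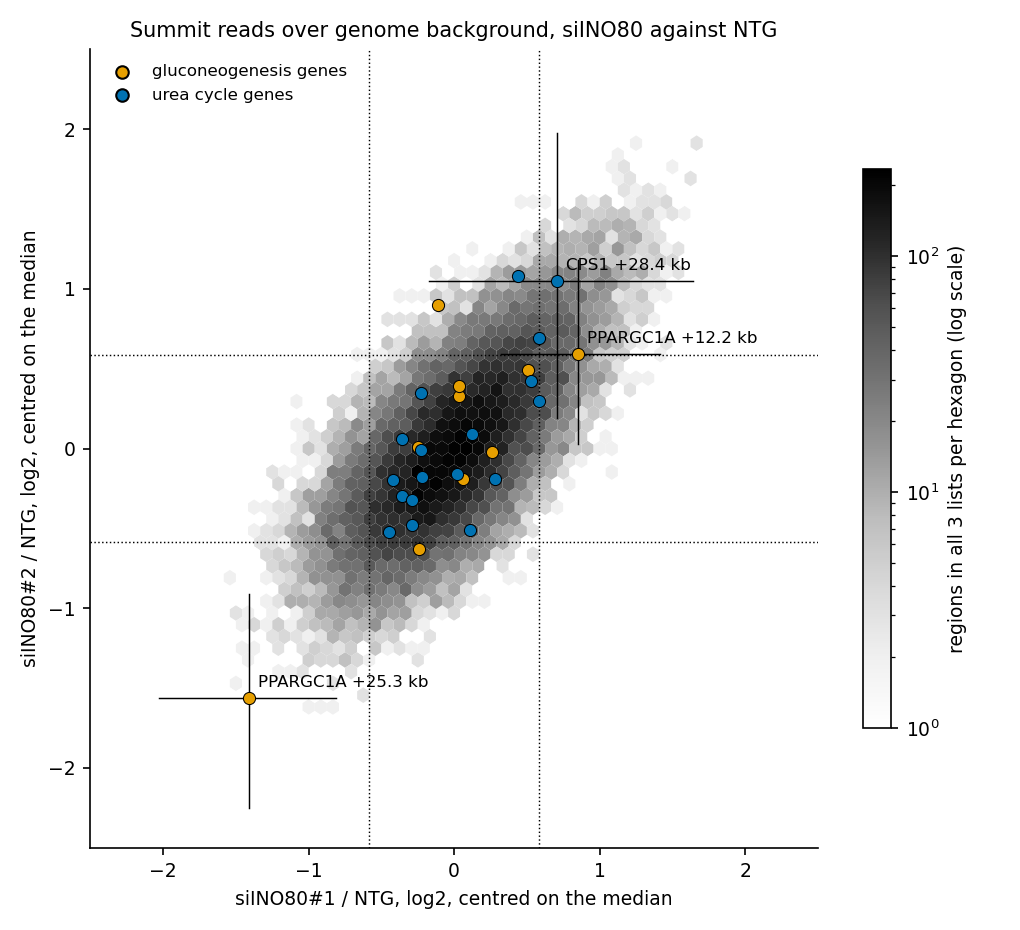
Log2 ratio to NTG of summit reads over genome background, centred on the median of all shared regions, for siINO80#1 (x axis) and siINO80#2 (y axis). Gray hexagons count the 29863 shared regions, colored points are the 28 near the gluconeogenesis and urea cycle genes, dotted lines mark 1.5-fold and bars are 95% counting intervals for the 3 labelled regions; PPARGC1A at 25.29 kb (−1.41 and −1.56) lies at the lower left edge of the cloud. Both axes share the NTG list.

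The motif content of the members was then set beside that of all regions, as matches within 300 bases around the summit. The AP-1 letters were present in 8 of 77 regions (10.4%, against 13.9% of all 111260), C/EBP in 16 (20.8%, against 15.1%) and the FOXA letters TGTTTAC, for the liver pioneer factors, in 7 (9.09%, against 6.62%). Of the 28 shared regions, 5 held an AP-1 match. Both regions that passed the fold rule upward were among them, as was CPS1 at −2.99 kb just outside it. The other two did not show the same shift, since TAT at 4.12 kb stood at −0.25 and 0.01 and ARG1 at −94.42 kb at 0.28 and −0.19 on the log2 scale. Across the genome, AP-1 matches stood in 862 of the 1789 shared regions that were higher with both siRNAs (48.2%), in 76 of the 1066 that were lower (7.13%) and in 17.8% of all shared regions. These matches describe letters and not bound factors, and the genome-wide AP-1 pattern was already known from these lists when the motif was chosen. The PPARGC1A region at 25.29 kb held no AP-1 match but a C/EBP match. Across the genome, C/EBP matches stood in 18% of the shared regions lower with both siRNAs and in 16.4% of those higher.

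Companion genes of the same pathways mostly had open start sites, as did most protein-coding genes. The share over all protein-coding genes was 60.6% in NTG, 60.2% in siINO80#1 and 53.5% in siINO80#2. Of 13 other enzymes and transporters of gluconeogenesis, 11 had a start-site peak in NTG, 9 in siINO80#1 and 10 in siINO80#2. GOT1 and MDH1, cytosolic enzymes of the malate-aspartate shuttle, stood at the 98.6 and 98.2 percentiles in NTG, and PCK2, the mitochondrial counterpart of PCK1, at the 74.4, 59 and 51.1 percentiles. Of 14 regulators, 11, 11 and 8 had one. CREB1 and SIRT1 kept theirs at or above the 89.8 percentile in every list, whereas CEBPA and CEBPB had low-ranking ones in NTG and siINO80#1 and none in siINO80#2. Of 9 other genes of the urea cycle and ammonia handling, 7 had one in each list. OTC, the ornithine transcarbamylase of the cycle itself, and SLC25A2 had none. Of 12 liver genes of amino acid breakdown, 10, 8 and 7 had one, and SDS and BHMT had theirs in NTG alone, at the 2.21 and 41.8 percentiles. Apart from those of the urea cycle and ammonia handling, the counts were lower in siINO80#2 than in NTG, as was the share over all protein-coding genes.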

How the data were processed

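ATAC-seq was performed in HepG2 cells with NTG, siINO80#1 or siINO80#2, in 3 replicates each (9 samples). The authors deposited 1 narrowPeak list per siRNA, so replicates were pooled or called together. Per the labels, processing used Trim Galore 0.4.1, Bowtie2, SAMtools, MACS2 and deepTools 2.2.4 on hg19; their settings and any shift for the transposase are not given in the sources used here. Fold enrichment in the deposited lists is a ratio of summit reads to local background, and the authors' p and q are given on the −log10 scale in the deposited lists. The remaining column gives the summit offset. No peak ran beyond its chromosome on GRCh37.

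Intervals listed with more than 1 summit entered once, represented by the summit with the greatest enrichment. Lists were matched at an overlap of 1 bp or more, and start sites were those of all annotated transcripts. Whole reads and background at each summit were solved from fold enrichment and −log10 p by the MACS2 formulas, missing −log10 p by no more than 0.00121; peaks held at least 12, 14 and 15 reads in NTG, siINO80#1 and siINO80#2. The lowest background of a list was its genome background. Intervals are 95% (Wilson for shares, exact Poisson or conditional for reads), cover counting error only and treat reads as independent molecules, which PCR copies are not. Members and lists were chosen with earlier results of these data known. Named regions were the start-site regions, the strongest distal region per gene, all regions in both siINO80 lists and not NTG, and NTG-only regions at or above the 50th percentile; other named regions were chosen after their values were seen. Some items are not reported here. The percentile is the share of a list's peaks at or below that fold enrichment. Alternatives were −log10 q of at least 5, equal list size, flanks of 10 and 50 kb, merging within 500 bp, a start-site distance of 2.5 kb, protein-coding start sites, an overlap of 50%, ranking by −log10 q and a motif window of 200 bases; canonical transcripts, leaving out CPS1 and the other scalings of the fold rule were added after seeing the data. Read recovery was tested on 1996 simulated peaks and overlaps were checked against bedtools on 1000 intervals, with 100% recovered. The software was bedtools 2.31.1, pysam 0.24.0, scipy 1.17.1, pandas 2.3.3, numpy 2.4.6 and matplotlib 3.10.9 under Python 3.11.15.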

Additional observations from a re-analysis of the deposited data

Results flagged for a closer look

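The number of peaks near the 10 genes moved in opposite directions with the INO80 siRNAs, by 11 above NTG with siINO80#1 and by −11 with siINO80#2. Each siRNA was represented by 1 list, and the difference was not tested. At equal list size the counts were 44 and 38, against 42 in NTG, and with weaker peaks removed (−log10 q below 5) 28 and 25, against 26. CPS1 and ARG1 held 3 and 5 of the peaks by which siINO80#1 exceeded NTG. Depth, list size and siRNA cannot be told apart here.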

How the results depend on the processing

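Of 89 recomputed counts and shares, 72 stayed within 1.5 times the reported count or within the interval of the reported share. With −log10 q of at least 5, NTG, siINO80#1 and siINO80#2 had 26, 28 and 25 peaks near the genes, the share of NTG peaks matched in siINO80#2 was 80.8%, and 4 regions were in NTG alone. With a flank of 50 kb, NTG had 74 peaks and 26 regions were in NTG alone. At an overlap of 50%, the share matched in siINO80#1 was 53.1%. With canonical transcripts, 7 regions were in NTG alone. Without CPS1, the lists had 27, 35 and 20 peaks, 16 regions were in all lists, 6 in NTG alone and 2 in both siINO80 lists and not NTG. Without centring, the fold rule gave 2 regions lower and 0 higher; with fold enrichment as deposited, it gave the same regions as reported. The cause was not tested, except that leaving out CPS1 or raising the threshold leaves fewer peaks. Ranking by −log10 q moved 3 of 55 percentiles beyond counting error, all of them of the LANCL1 region. A motif window of 200 bases moved 1 of 8 motif shares (C/EBP, to 11.7%, against 10.3% of all regions with that window). No paired analysis was possible because only 1 list per siRNA was analysed, with no replicate columns, and for the same reason no replicate could be left out. Regions with under 20 reads at the summit carry wide counting intervals, and a region without a peak has no value.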
